A study of Mus musculus with 50 samples.

Results

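In the astrocytes of mouse primary visual cortex (V1), most regions occupied by the glucocorticoid receptor (GR) were also occupied by the transcription factor NFIA, and the regions described here are the exceptions. They were chosen by the peak lists themselves: overlapping GR peaks of the 3 libraries from normally reared (NR) astrocytes were merged and kept where at least 2 libraries had a peak, NFIA sites were made in the same way from 3 NFIA libraries of NR astrocytes, and GR sites that no NFIA site overlapped by 1 bp or more were retained. Of 12458 GR sites, 586 (4.70%) had no NFIA site among 23495, and the other 11872 are called GR sites with NFIA below. Because GR and NFIA peaks of NR astrocytes selected these 586 sites, their levels in those 6 libraries are given only as a description.

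The lists came from CUT&RUN, in which an antibody directs a nuclease to chromatin and the short fragments released around the bound protein are sequenced. A fold is the enrichment of a peak over background as the authors' peak caller wrote it. Each in vivo library was made at postnatal day 14 from 175000 sorted V1 nuclei, pooled from 3 to 5 mice. Astrocyte nuclei carried a nuclear envelope GFP from a virus, AAV2/5, whose GfaABC1D promoter also drove ΔCre, a recombinase without activity, in mice labelled WT kept in a normal light cycle (NR, 3 GR and 3 NFIA libraries) or in darkness (DR, 3 GR libraries) and in GRfl/fl mice (GR-con, 2 GR libraries). The methods mention GRfl/fl mice also for astrocyte NFIA libraries, so the genotype behind the NFIA lists rests on their labels. In the GR-KO group (2 GR libraries) the same promoter drove active Cre in GRfl/fl mice. Nuclei of oligodendrocytes, of inhibitory neurons (InN) and of excitatory neurons (ExN) were labelled with Sun1-GFP through Olig2-Cre, Vgat-Cre and Vglut1-Cre and gave 3 GR and 3 NFIA libraries each, all after normal rearing. Olig2-Cre can also mark other glia, so the oligodendrocyte group is as pure as its driver and sort allow. The remaining 8 GR libraries came from 3T3 cells, a mouse fibroblast line, as 50000 or 250000 nuclei after 2 h of vehicle (Veh) or 200 nM dexamethasone (DEX), a synthetic GR ligand, with 2 libraries for each combination. Peaks hold no expression, so the labelled cell types could not be checked against marker transcripts.

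GR is a nuclear receptor that stays in the cytoplasm with chaperones until a glucocorticoid binds it, and then enters the nucleus. As a dimer it binds the glucocorticoid response element (GRE), a pair of inverted half-sites around 3 unspecified bases, and it can also bind single half-sites or reach DNA through other factors. NFIA belongs to the nuclear factor I family, which drives gliogenesis in the developing nervous system, stays expressed in mature astrocytes and binds inverted TTGGC half-sites.

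Sequences of 101 bp centred on the GR summit are shown for 9 of the 586 sites, from the plus strand of mm10, because later results turn on the letters they hold. The first 3 are all the sites of the set with a full GRE, in capitals. They lay at chr6:146010567-146010667 between genes, 78976 bp downstream of the start of Sspn (sarcospan of the dystrophin-associated complex), at chr3:86811050-86811150 in an intron of Dclk2 (a doublecortin-like kinase), and at chr1:73075969-73076069, 60110 bp upstream of Tnp1 (a sperm chromatin protein).

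Sspn: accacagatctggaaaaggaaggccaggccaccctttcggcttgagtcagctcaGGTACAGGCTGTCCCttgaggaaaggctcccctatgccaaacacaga

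Dclk2: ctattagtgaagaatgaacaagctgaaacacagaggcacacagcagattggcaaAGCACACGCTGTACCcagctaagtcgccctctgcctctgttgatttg

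Tnp1: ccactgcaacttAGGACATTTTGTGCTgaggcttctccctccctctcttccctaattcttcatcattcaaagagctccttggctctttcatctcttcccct

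The other 6 carry TGGAAA, or its complement TTTCCA, in capitals, and were picked after their values had been seen. Abhd6 led the sites with peaks in both GR-con libraries and none in GR-KO. The rest were picked as sites that recurred in GR libraries outside the rule. These 6 lay at chr14:8030664-8030764 in an intron of Abhd6 (a lipase that degrades an endocannabinoid), at chr6:91684037-91684137 at the start of Slc6a6 (the taurine transporter), at chr9:62560179-62560279, 23185 bp upstream of Coro2b (an actin-binding coronin), at chr13:60417594-60417694, 184303 bp upstream of Dapk1 (a calmodulin-regulated kinase of cell death), at chr2:156980157-156980257 in an intron of Ndrg3, and at chr1:180848221-180848321, 2856 bp upstream of Sde2.

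Abhd6: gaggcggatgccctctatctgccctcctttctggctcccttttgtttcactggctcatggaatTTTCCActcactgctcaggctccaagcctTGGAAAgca

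Slc6a6: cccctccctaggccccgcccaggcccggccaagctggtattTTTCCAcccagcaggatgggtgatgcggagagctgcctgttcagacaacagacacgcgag

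Coro2b: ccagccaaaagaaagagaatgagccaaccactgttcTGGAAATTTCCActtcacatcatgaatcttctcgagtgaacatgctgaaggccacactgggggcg

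Dapk1: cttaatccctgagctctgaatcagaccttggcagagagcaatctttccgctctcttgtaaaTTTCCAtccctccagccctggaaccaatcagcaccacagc

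Ndrg3: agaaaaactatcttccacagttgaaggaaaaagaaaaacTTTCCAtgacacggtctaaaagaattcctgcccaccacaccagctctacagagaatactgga

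Sde2: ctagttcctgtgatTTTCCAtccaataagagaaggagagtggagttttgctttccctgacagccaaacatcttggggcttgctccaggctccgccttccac

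The Abhd6 window held the 6 letters at 2 places, and the Coro2b window held them once on each strand, running into one another without a gap. The other 4 windows held a single copy, and the Sspn window, where capitals mark the GRE alone, also held one.

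The 3 NR libraries that defined the GR sites differed widely in size, with 14012, 2262 and 21539 peaks in replicates 1, 2 and 3. Replicates 1 and 3 alone gave 480 of the 586 sites (81.9%), replicates 2 and 3 alone gave 66, replicates 1 and 2 alone gave 11, and all 3 replicates called 29 (4.95%). Among the GR sites with NFIA, 9912 came from replicates 1 and 3 alone, 153 from replicates 2 and 3 alone, and 1797 (15.1%) from all 3. Chosen without replicate 1, 2 or 3, the set would have held 95, 509 or 40 sites. Sites without NFIA were narrower, with a median of 142 bp (76 to 449) against 237 bp. The median fold at sites without NFIA was 5.61, 6.84 and 5.83 in replicates 1, 2 and 3, against 6.47, 5.98 and 8.29 at GR sites with NFIA. At the sites without NFIA by the rule, replicates 1 and 3 thus had weaker peaks and replicate 2 had stronger ones. Its strongest peak of all, 45.9-fold, was the Abhd6 site.

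Absence of an NFIA site was in most cases absence of a second call. Of the 586 sites, 411 (70.1%) had an NFIA peak in 1 of the 3 astrocyte NFIA libraries, 10 had peaks in 2 libraries that did not overlap each other, and 165 (28.2%) had none. Together, 421 of 586 had an NFIA peak in at least 1 library, which was true of 98.7% of all GR sites, a measure that the rule itself used. On the other side of the threshold, 910 GR sites with NFIA rested on an NFIA site called in exactly 2 libraries. The median NFIA fold was 5.82 at the sites with 1 NFIA call (2.18 to 15.4), 6.26 at those 910 sites, and 8.62 over all GR sites with NFIA. The smallest gap between a site without NFIA and an NFIA site was 6 bp, and the smallest overlap of a GR site with an NFIA site was 46 bp. The number of GR sites without NFIA was 165 when no NFIA peak in any library was allowed and 1496 when an NFIA site had to be called in all 3 libraries. With 1 NFIA library left out and both others required, it was 1278, 1263 and 1059 for replicates 1, 2 and 3.

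Distances to NFIA varied widely. The median distance to the nearest NFIA site was 10091 bp, with quartiles of 2135 bp and 46756 bp, and 109 sites (18.6%) lay within 1000 bp of one, as the histogram of distances to NFIA sites shows. An NFIA site lay within 50 kb of 447 sites (76.3%), and a GR site with NFIA within 50 kb of 368 (62.8%). The farthest site was 4.15e+06 bp from any NFIA site.

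**Figure D1:**
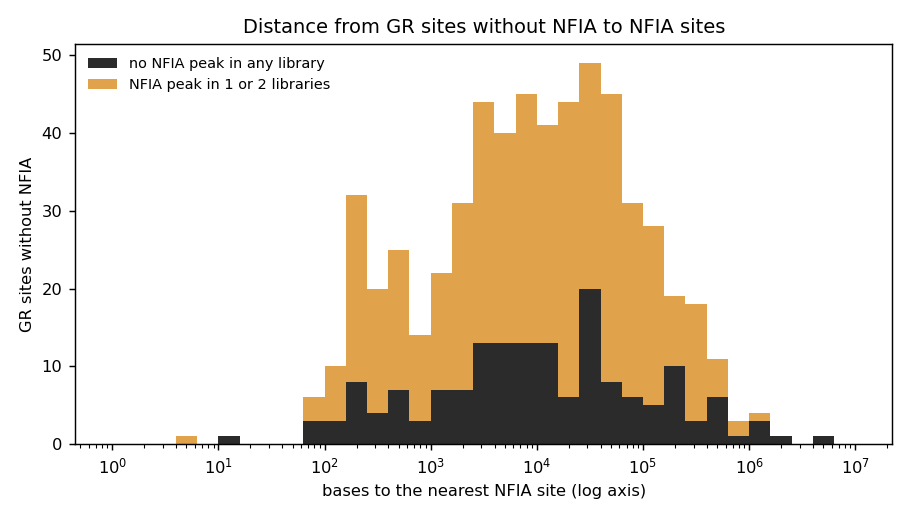
Distance from each of the 586 GR sites without NFIA to the nearest NFIA site of NR astrocytes, in bases on a log axis, stacked by whether any astrocyte NFIA library had a peak at the site. The median over all sites was 10091 bp, and 18.6% lay within 1000 bp.

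By position, the sites without NFIA were depleted of promoters. Of the 586, 132 (22.5%, Wilson 95% interval 19.3 to 26.1) lay within 500 bp of an annotated transcription start, 35 (5.97%) in an exon, 248 (42.3%) in an intron and 171 (29.2%) between genes. Among GR sites with NFIA, 5728 (48.2%) were at promoters, 3355 (28.3%) in introns and 2310 (19.5%) between genes. The median distance to the nearest protein-coding start was 32187 bp without NFIA and 6673 bp with NFIA. Sites with no NFIA peak in any library were at promoters in 29 of 165 cases (17.6%). The sites were spread over chromosomes 1 to 19 and X, with 49 on chromosome 1, 43 each on 4 and 9, 12 on X and none on Y.

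The same difference was seen in each astrocyte GR library of normally reared mice with GR, of which the 3 NR libraries had chosen the sites and only the 2 GR-con libraries had not. Of the peaks on sites without NFIA, 22.8%, 11.3% and 22.6% had a summit at a promoter in NR replicates 1, 2 and 3, and 3.21% and 9.88% in GR-con replicates 1 and 2. Of the peaks on sites with NFIA in the same libraries, 47.0%, 33.1%, 46.9%, 32.9% and 43.2% did. The share was lower without NFIA in 5 of 5 libraries, by 26.7 ± 4.74 percentage points (SD, n = 5). No test over these 5 libraries is given here or for the motifs below, because NR replicates 1 and 3 held 520 and 575 of the same 586 sites and so were repeated views of 1 set.

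Base composition moved the same way. Summit windows without NFIA held on average 2.08 CpG dinucleotides against 4.14 with NFIA over the 5 libraries, and 49.8% against 56.7% G and C. Repeats, which are lower-case letters in the reference, covered 7.25% of the windows without NFIA and 5.35% of those with NFIA. Each of these 3 differences had the same sign in the 2 GR-con libraries as in the 3 NR libraries.

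Motifs were searched on both strands of the same 101 bp, as the presence of the letters and not as proof of a bound site. The letters of promoter factors were the ones most depleted at sites without NFIA. GGGCGG, the core recognised by SP and KLF factors, stood in 7.42% of peak windows without NFIA and in 19.8% with NFIA, a difference of -12.4 ± 2.47 percentage points (SD, n = 5 libraries). CCAAT, bound by NF-Y, stood in 15.6% and 25.5%. GCATGCGC of NRF1, CCGGAAG of the ETS family and AANATGGC of YY1 were also rarer without NFIA in 5 of 5 libraries, with differences of -1.32, -1.67 and -1.16 percentage points. The shares also differed by position. GGGCGG stood in 34.8% of the 132 promoter sites without NFIA and 43.4% of those with NFIA, and in 3.52% and 6.23% of distal sites, meaning all sites outside promoters. CCAAT stood in 12.1% and 26.7% at promoters and in 13.2% and 16.5% at distal sites. At 1 kb from the summits, windows of that length held GGGCGG in 3.45% and CCAAT in 12.2% of cases.

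Letters of GR itself leaned the other way. AGAACA, a GRE half-site, stood in 10.7%, 15.1% and 12.2% of windows without NFIA in NR replicates 1, 2 and 3 and in 19.3% and 13.6% in GR-con replicates 1 and 2, against 7.27%, 11.8%, 6.996%, 11.1% and 7.68% with NFIA. The half-site was more frequent without NFIA in every one of the 5 libraries, by 5.20 ± 1.99 percentage points. By site it stood at 65 of 586 (11.1%, interval 8.80 to 13.9) and in 7.06% with NFIA, beside 8.21% of windows at 1 kb. Within each position the gap was smaller. At distal sites AGAACA stood in 57 of 454 windows without NFIA (12.6%, interval 9.82 to 15.9) and in 10.9% with NFIA, a value inside that interval, and at promoters in 8 of 132 (6.06%, 3.10 to 11.5) and 2.92%. The loose GRE core, ACANNNTGT, which a full GRE contains, stood in 4.86% and 3.17% of windows as library means (higher in 5 of 5 libraries). By site it stood at 22 of 586 (3.75%, interval 2.49 to 5.62) and in 2.41% with NFIA. Its share at 1 kb, 2.81%, lay inside that interval. The full GRE stood in 0.661% and 0.732% of distal windows without and with NFIA. It was rare on both sides, at 3 of 586 sites without NFIA (0.512%, interval 0.174 to 1.49) and 51 of 11872 with NFIA (0.430%), and in 0.0642% of windows at 1 kb.

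The NFI half-site TTGGCA was rarer without NFIA at sites of the same position, although its share over all sites was similar. At distal sites it stood in 59 of 454 windows without NFIA (12.996%, interval 10.2 to 16.4) and in 19.3% with NFIA, and at promoters in 3 of 132 (2.27%, 0.776 to 6.47) and 5.36%. Over all positions it stood in 62 of the 586 windows (10.6%, interval 8.34 to 13.3) and in 12.6% of windows with NFIA, against 5.02% at 1 kb. Over the 5 libraries the difference was -0.50 ± 2.62 percentage points, lower in 4 of 5, and it was -4.18 for peaks of −log10 q of at least 5. The full NFI site, TTGGC and GCCAA with 5 bases between, stood in none of the 586 windows, which allows a share of up to 0.512%, and in 2 of the 11872 with NFIA.

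A pair of further patterns was more frequent without NFIA in 5 of 5 libraries. TAATTA, a site of LIM homeobox (LHX) factors, stood in 7.32% of windows against 3.00%, as means that weight short and long lists alike. By site it stood at 28 of 586 (4.78%, interval 3.33 to 6.82) and in 2.14% with NFIA, beside 2.42% at 1 kb. GAANNTTC, the core of a heat shock element, stood in 6.76% against 2.69% as library means. By site it stood at 21 of 586 (3.58%, 2.36 to 5.42) and in 1.98% with NFIA. Its share at 1 kb, 2.65%, lay inside that interval. The library difference for GAANNTTC, 4.08 percentage points, was 1.30 for sites chosen without NR replicate 2 and 0.87 without replicate 3. The heat shock letters stood at 8 of the 31 sites with a DR peak (25.8%) and at 13 of the other 555 (2.34%). They are not independent of TGGAAA, which stood at 27 of the same 31 sites. In the Abhd6 and Coro2b windows printed above, GAANNTTC overlaps TGGAAA or its complement. The CTCF core stood at 12 of the 586 sites (2.05%) and 0.767% of those with NFIA. Among the 29 sites called in all 3 NR libraries AGAACA and TAATTA differed the other way, by -7.85 and -3.29 percentage points, and also among the 40 sites chosen without NR replicate 3, by -4.26 and -2.60. TGACTCA or TGAGTCA, bound by AP-1, stood in 2.63% and 1.59% of windows (higher in 4 of 5 libraries), TGACGTCA of CREB in 0.550% and 0.929%, and the E-box CACGTG in 1.79% and 2.68%.

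**Figure D2:**
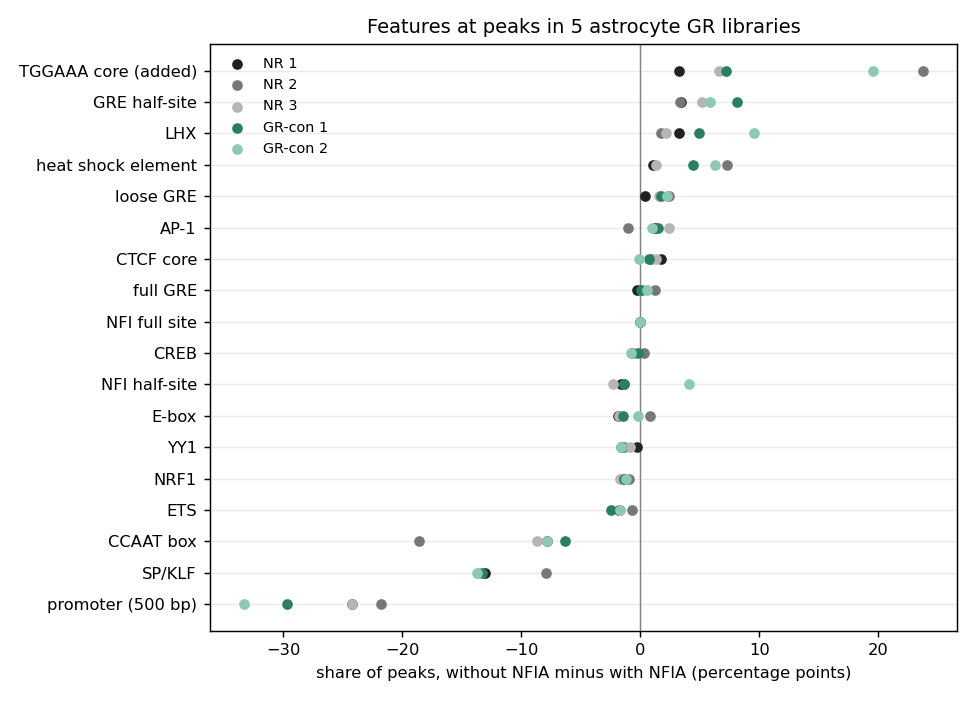
Share of GR peaks with each feature at sites without NFIA minus the share at sites with NFIA, in percentage points, with 1 point for each of 3 NR and 2 GR-con libraries. Promoters, SP/KLF and CCAAT letters lie left of 0 in all 5 libraries and the GRE half-site, LHX, heat shock and TGGAAA letters lie right of 0. The TGGAAA pattern was added after the sequences had been read.

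GR-con and GR-KO astrocytes asked whether the peaks depended on the receptor, in GR libraries that the rule had not used. Of the 586 sites, 187 (31.9%, interval 28.3 to 35.8) and 81 (13.8%, 11.3 to 16.9) had a peak in GR-con replicates 1 and 2, and 44 (7.51%, 5.64 to 9.93) and 1 (0.171%, 0.0301 to 0.960) in GR-KO replicates 1 and 2. Both GR-con libraries exceeded both GR-KO libraries, with 22.9 ± 12.8% against 3.84 ± 5.19% (SD, n = 2 each). The difference of 19.0 percentage points had p = 0.333 in an exact two-sided permutation test, the smallest p that 2 against 2 libraries allow, and an adjusted p of 0.333 over 4 comparisons. These libraries held 7761, 6792, 1846 and 413 peaks in that order. The part of list size in the difference was not tested. Without GR-con replicate 1 the difference was 9.98 percentage points, and for sites chosen without NR replicate 1 or 3 it was 40.5 and 36.3. In GR-con, 212 sites (36.2%) had a peak in at least 1 library, beside 58.7% of all GR sites, and in GR-KO 45 (7.68%) did, beside 12.6%.

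Fewer of the sites recurred in GR-con than of GR sites with NFIA. The share with NFIA was 44.2% and 46.0% in the 2 GR-con libraries, higher by 12.3 and 32.2 percentage points than without NFIA (exact sign-flip test over 2 libraries, p = 0.5, the smallest possible). A peak in both GR-con libraries and in no GR-KO library was found at 44 sites without NFIA (7.51%), beside 20.0% of all GR sites. By position, 6.82% of the 132 promoter sites without NFIA had a peak in each GR-con library, against 31.6% and 43.0% of those with NFIA, and 39.2% and 15.9% of the 454 distal sites did, against 55.9% and 48.9%. The share was thus lower without NFIA at both positions in both libraries.

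Few peaks were called in darkness, and the sites without NFIA that had one were almost all sites of NR replicate 2. The 3 DR libraries held 69, 28 and 293 peaks, and 6, 4 and 31 of the 586 sites had one (1.02%, 0.683% and 5.29%). GR sites with NFIA had a peak in 0.379%, 0.185% and 1.59% of cases, so that the share was higher without NFIA in 3 of 3 DR libraries, whereas it was lower in 2 of 2 GR-con and 2 of 2 GR-KO libraries. In total 31 sites (5.29%) had a DR peak, beside 1.80% of all GR sites, and all of them had it in replicate 3. In each DR library the peak of highest fold lay at a site without NFIA, at 22.5-fold, 30.3-fold and 51.5-fold, and in each it was the Abhd6 site. Of the 31 sites, 30 had been called in NR replicate 2, the NR library with the fewest peaks, and 22 in replicates 2 and 3 alone. At the 480 sites of NR replicates 1 and 3 alone the share was not higher, with 0%, 0% and 0.208% in the 3 DR libraries against 0.0404%, 0% and 0.303% of the 9912 such sites with NFIA. At the 66 sites of NR replicates 2 and 3 alone the share was higher, with 7.58%, 4.55% and 33.3%. The 153 such sites with NFIA had 3.27%, 1.31% and 7.19%. At the 29 sites of all 3 NR replicates it was 3.45%, 3.45% and 24.1%, against 2.00%, 1.11% and 8.24% of 1797 with NFIA. The mean DR share of 2.33% fell to 0.655% for sites chosen without NR replicate 2.

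Other cell types held almost none of these sites. In InN, 9, 8 and 7 of the 586 had a GR peak (1.54%, 1.37% and 1.19%), in ExN 7, 0 and 1, and in oligodendrocytes 0, 0 and 1. The group means were 1.37 ± 0.171%, 0.455 ± 0.646% and 0.0569 ± 0.0985% (SD, n = 3 each). All lay below both GR-con libraries (exact permutation test, p = 0.1 for each cell type, the smallest possible with 2 against 3, adjusted p = 0.133). A count of 0 allows a share of up to 0.512%. At least 1 library had a peak at 13 sites in InN (2.22%, beside 8.60% of all GR sites), at 8 in ExN (1.37%, beside 11.4%) and at 1 in oligodendrocytes (0.171%, beside 1.02%). The peak lists of these cell types held 916 to 2446 peaks in InN, 61 to 4563 in ExN and 4 to 110 in oligodendrocytes. Over the 16 in vivo GR libraries outside the rule, the share was lower without NFIA in 12, by 4.30 percentage points on average (exact sign-flip test, p = 0.0159, over libraries of several groups). At promoters the share was lower in 13 of 16 libraries, with a mean difference of -7.001 points (exact sign-flip test, p = 0.00116). These libraries were of several groups and list sizes. Each p thus covers the spread over unlike libraries, and not between replicates of 1 condition. At distal sites the call was lost, with a share lower in 9 libraries and higher in 6 and a mean difference of -3.43 points (exact sign-flip test, p = 0.187). In InN 1.10%, 1.54% and 1.32% of distal sites without NFIA had a peak against 1.53%, 0.505% and 0.586% with NFIA, so the share was higher without NFIA in 2 of 3 libraries.

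NFIA itself was no more frequent at these sites in the other cell types. No NFIA peak was found at any of the 586 sites in the 3 oligodendrocyte libraries, beside 3.33% of all GR sites with one in at least 1 library. In InN 9 sites (1.54%, beside 6.74%) and in ExN 7 sites (1.19%, beside 11.2%) had an NFIA peak in at least 1 library. Over the 9 NFIA libraries of other cell types the share was lower without NFIA in 8 and equal at 0 in an ExN library of 1 peak. The mean difference was -2.54 percentage points (exact sign-flip test, p = 0.00781, over libraries of several cell types). At distal sites alone the mean difference was -1.14 points, again lower in 8 of 9 (exact sign-flip test, p = 0.00781).

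In 3T3 cells the sites without NFIA had GR peaks with and without DEX. With 250000 nuclei 6 and 7 sites had a peak in the 2 vehicle libraries and 12 and 12 in the 2 DEX libraries, and with 50000 nuclei 6 and 7 in vehicle and 4 and 6 in DEX. The DEX share was 1.45 ± 0.704% and the vehicle share 1.11 ± 0.0985% (SD, n = 4 each), a difference of 0.341 percentage points (exact permutation test within each number of nuclei, p = 0.333). For sites chosen without NR replicate 1 it was -0.526 points. GR sites with NFIA went from 0.394 ± 0.228% in vehicle to 1.71 ± 1.34% in DEX, a difference of 1.32 points (same exact permutation test, p = 0.0556, the smallest p of this design). Vehicle peaks were found at 7 sites without NFIA in all (1.19%, beside 0.955% of all GR sites) and DEX peaks at 16 (2.73%, beside 4.01%). Of those 7 sites, 6 had a peak in all 4 vehicle libraries (1.02%, against 0.118% of GR sites with NFIA), so nearly all the vehicle calls came from the same few loci.

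**Figure D3:**
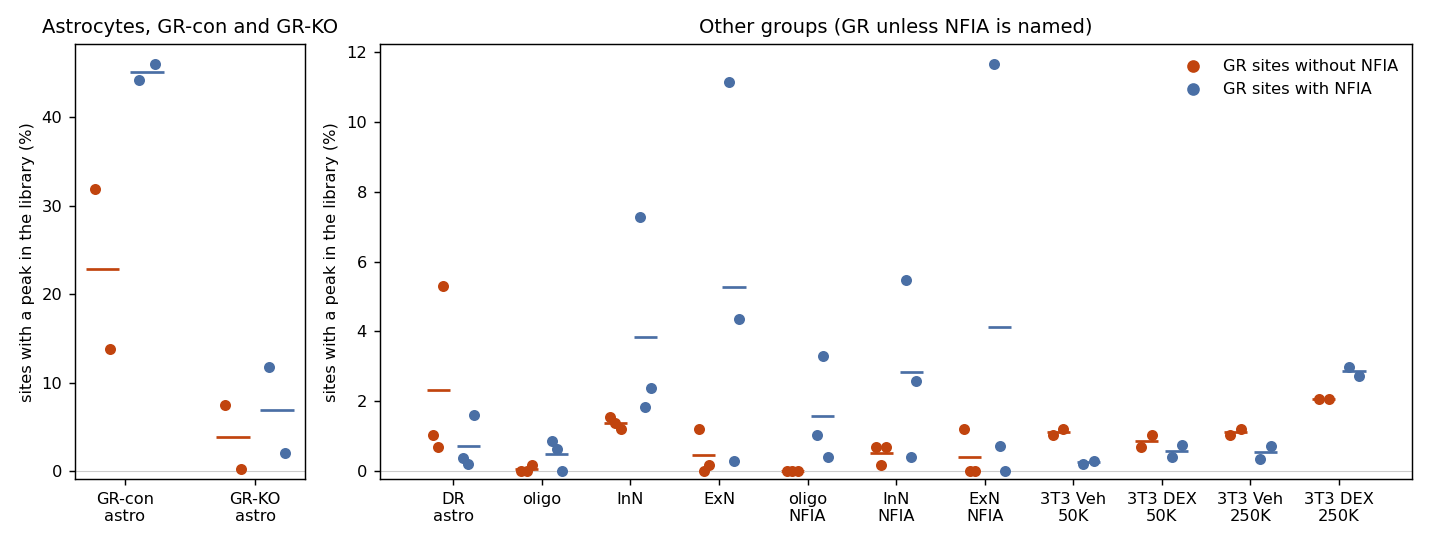
Percent of GR sites without NFIA (586) and with NFIA (11872) that had a peak in each library outside the rule, with 1 point for each library and a line at the group mean, in separate panels with their own linear axes. Sites without NFIA lie below those with NFIA in GR-con and GR-KO, and above them in DR and in 3T3 cells with vehicle at both numbers of nuclei and with DEX at 50000 nuclei.

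Most of the recurring loci held the letters TGGAAA, though not all, and the Slc30a5 and Ampd3 sites lacked them. The pattern was looked for only after sequences of the loci had been read, so its values are a description. It stood in 88 of the 586 windows (15.0%, interval 12.4 to 18.1), in 7.77% of windows with NFIA and in 9.13% of windows at 1 kb. Among sites without NFIA it was unevenly spread over the NR libraries. It stood in 32 of 66 sites of replicates 2 and 3 (48.5%), in 9 of 29 sites of all 3 (31.0%), in 2 of 11 of replicates 1 and 2, and in 45 of 480 of replicates 1 and 3 (9.38%, close to the windows at 1 kb). Sites with NFIA of replicates 2 and 3 had it in 17.0%, and those of replicates 1 and 3 in 6.84%. Of the 165 sites with no NFIA peak in any library, 38 had it (23.03%), and of the 421 others 50 (11.9%).

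The letters went with peaks in darkness. Of the 31 sites with a DR peak, 27 had TGGAAA (87.1%, interval 71.1 to 94.9), against 61 of 555 without a DR peak (10.99%). Among GR sites with NFIA the shares were 61 of 193 (31.6%) and 7.37%. All 7 sites with a 3T3 vehicle peak had it. Of 345 sites with no GR peak in any of the 24 GR libraries outside the rule 36 had TGGAAA, of the 36 with peaks in at least 3 such libraries 24 had it, and of the 6 with peaks in at least 8 all did. In 25 of the sites with a DR peak whose copy lay far enough inside the window to read its neighbours, bases 7 and 8, counted from the first T of TGGAAA, were never C, bases 9, 10 and 11 were never G, and the copy stood a median of 14 bp from the summit.

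Across whole peak lists the letters were frequent in DR and in 3T3 vehicle. TGGAAA stood at 65.2%, 85.7% and 56.0% of the peaks in the 3 DR libraries, against 5.07%, 5.36% and 8.19% at 1 kb. In NR libraries it stood at 8.01%, 18.2% and 7.86%, in GR-con at 11.1% and 9.45%, and in GR-KO at 15.7% and 7.99%, against 8.80% to 10.2% at 1 kb. In 3T3 vehicle it stood at 41.8%, 33.8%, 32.2% and 23.9% of peaks, and in DEX at 21.5%, 19.7%, 15.6% and 15.9%. The vehicle and DEX libraries did not overlap in share, although the DEX lists held more peaks with the letters in each number of nuclei (155 and 274 against 79 and 108 with 50000 nuclei, and 739 or more against 247 or fewer with 250000). The NFIA lists with at least 20 peaks had 6.599% to 8.67%. Short lists differed among themselves, with 6.36% and 9.88% of the 110 and 81 peaks of oligodendrocyte replicates 1 and 2 and 19.7% of the 61 peaks of ExN replicate 2. The part that list length, antibody or control library had in this was not tested.

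**Figure D4:**
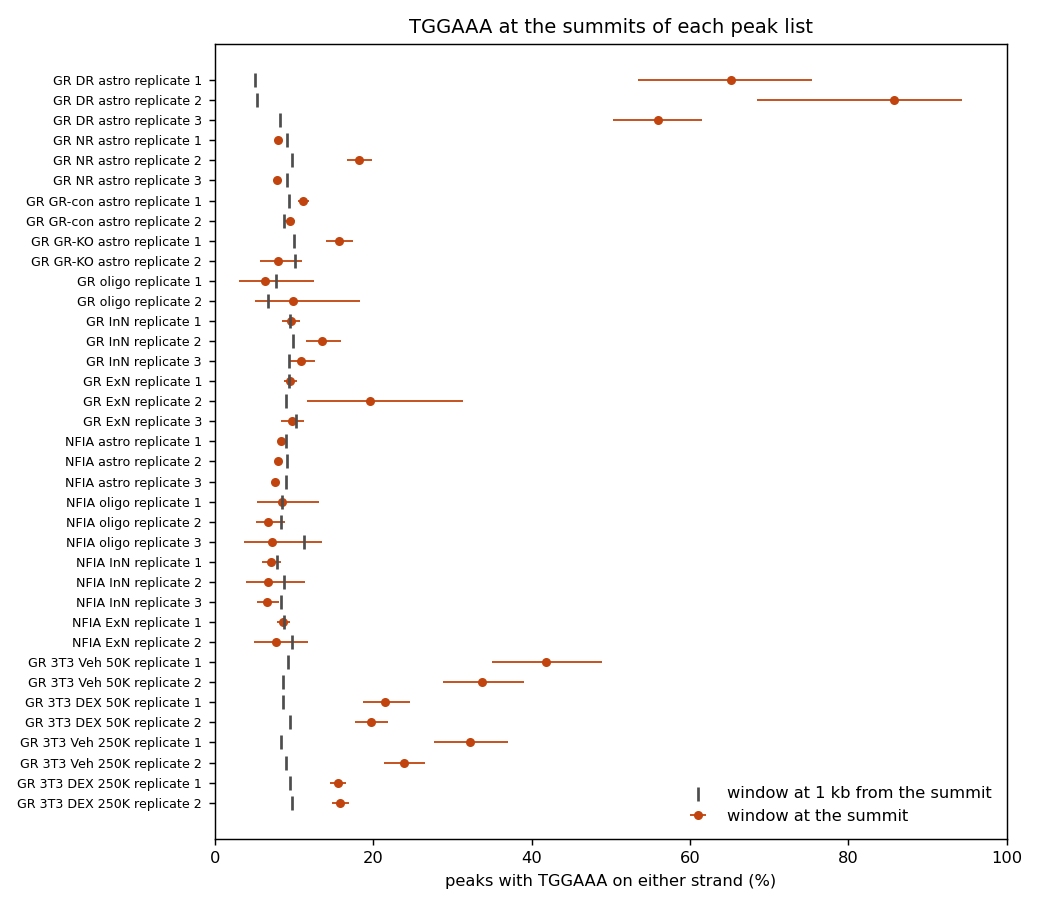
Percent of peaks with TGGAAA on either strand in the window around the summit (points, with Wilson 95% intervals) and in windows of the same length at 1 kb (ticks), for each list of at least 20 peaks. The 3 DR lists lie at 56.0% to 85.7% and the 3T3 vehicle lists at 23.9% to 41.8%, far right of their flanks, while most NFIA lists lie at or left of theirs.

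The recurring sites differed in where they recurred. The Slc6a6 site, at chr6:91684029-91684141 in the promoter, had a peak in 14 of the 24 GR libraries outside the rule. Its fold was 10.5 in DR replicate 3, 5.99 in GR-con replicate 2, 15.0, 9.92 and 7.0 in InN and 4.57 in ExN replicate 1. In 3T3 cells its fold was 6.15, 6.18, 7.56 and 9.74 in vehicle and 9.97, 11.2, 17.1 and 15.5 in DEX, higher in every DEX library than in any vehicle library. The Coro2b site, at chr9:62560139-62560325, had the opposite order, with 25.4, 20.9, 26.8 and 30.4 in vehicle and 12.2, 12.9, 19.5 and 19.6 in DEX. It was the strongest peak in both 50000-nuclei vehicle libraries and in the first one of 250000 nuclei. In astrocytes it reached 25.0 and 7.81 in NR replicates 2 and 3, 7.78 and 11.8 in GR-con and 12.6 in DR replicate 3, and it had no peak in GR-KO, InN, ExN or oligodendrocytes.

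Sites near Dapk1, Ndrg3 and Vat1 were also called in all 4 vehicle libraries. The Dapk1 site (chr13:60417555-60417727) had a fold of 7.76, 5.61, 8.11 and 8.27 in vehicle and 11.1, 9.54 and 11.1 in the 3 DEX libraries that called it. The Ndrg3 site (chr2:156980157-156980243) had 11.4, 8.22, 9.54 and 13.4 in vehicle and 10.3, 9.54 and 5.55 in 3 DEX libraries. The site nearest Vat1 lay inside Rnd2, at chr11:101467509-101467720, with 9.27, 14.4, 13.9 and 13.4 in vehicle and a peak in 1 DEX library (10.6). All 3 had a peak in DR replicate 3, at 9.70, 11.5 and 14.4. The Sde2 site (chr1:180848173-180848338) had peaks in all 8 3T3 libraries, from 7.30 to 18.3, and in no other GR library outside the rule, so it was an astrocyte site of NR replicates 2 and 3 (4.69 and 5.29) shared only with fibroblasts.

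Other sites recurred in the brain alone. The Abhd6 site (chr14:8030611-8030768) was the strongest of the set by rank in the NR libraries. Its fold was 45.9 and 17.1 in NR replicates 2 and 3, 22.5, 30.3 and 51.5 in DR and 19.4 and 23.4 in GR-con, and no GR-KO, neuronal, oligodendrocyte or 3T3 library called it. The Paqr7 site, 12.8 kb upstream of a membrane progestin receptor gene at chr4:134483791-134483921, had 13.4, 10.9 and 13.1 in InN, 10.7 in ExN replicate 1, 11.5 in GR-con replicate 2 and 9.46 in DR replicate 3. A site 223 kb upstream of Rbfox1, a splicing regulator of neurons (chr16:5662013-5662191), had 24.2 in DR replicate 3 and 4.60, 6.92 and 6.79 in InN. A site 258 kb from Pik3c3, the kinase VPS34 of autophagy, had 9.90, 13.3 and 15.7 in DR and 9.53, 7.47 and 4.52 in InN. Of 6 sites with peaks in at least 2 libraries of 1 other cell type, all had them in InN.

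**Figure D5:**
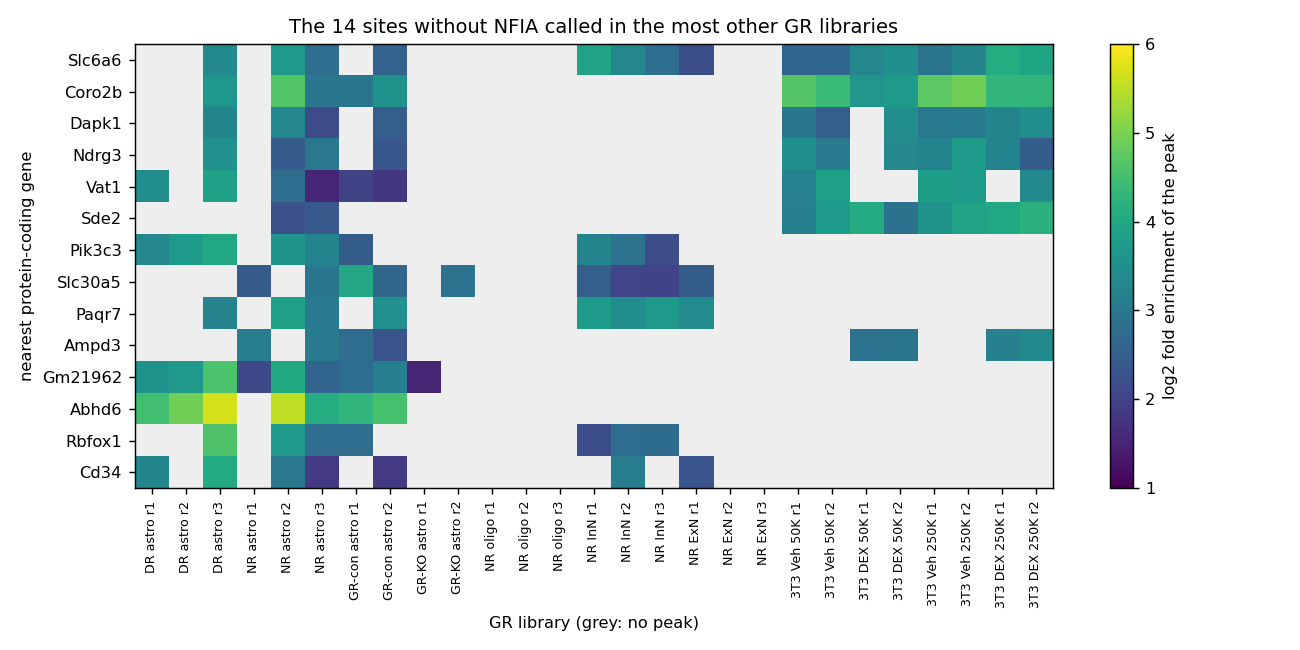
Log2 fold of the GR peak at the 14 sites without NFIA that had peaks in the most GR libraries outside the rule, by library (columns) and nearest protein-coding gene (rows), with grey for no peak. The upper rows recur in 3T3 cells with vehicle and DEX, 4 of the lower rows (Pik3c3, Slc30a5, Paqr7 and Rbfox1) in all 3 InN libraries, and Abhd6 in all 3 DR and both GR-con libraries.

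GR-dependent and GR-KO calls did not separate these loci cleanly. Among the 10 strongest sites with a peak in both GR-con libraries and none in GR-KO, besides Abhd6 and Coro2b, were intronic sites of Eya1 (a transcriptional coactivator; 8.99 and 9.91 in GR-con, 7.86 in DR replicate 3), Slmap (8.94 and 6.28) and Nudcd3 (5.39 and 5.19). Another lay in an intron of Rora, the orphan receptor that drives Bmal1, at chr9:68906187-68906371, with 9.64, 6.98 and 6.08 in the 3 NR and 8.34 and 5.14 in the GR-con libraries, an NFIA peak in replicate 2 (6.47) and no peak in DR. Intergenic sites near Lsamp (a neuronal cell adhesion protein) and Ampd3 (AMP deaminase) had 14.7 and 4.17, and 6.87 and 4.89, in GR-con. The Ampd3 site, at chr7:110715688-110715963, was also called in all 4 DEX libraries (7.50, 7.61, 9.01 and 10.6) and in no vehicle library, and it had no TGGAAA.

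Sites that kept a GR-KO peak were led by an intron of Mgat5, an enzyme of N-glycan branching (4.62 and 7.19 in GR-con, 4.87 in GR-KO replicate 1), a site 112 kb downstream of the start of Papss1, which makes the sulfate donor PAPS (7.45 and 9.07, then 8.41), and a site inside Rnf24 nearest Pank2 (7.78 and 9.18, then 5.68). A site 129 kb upstream of Tmem47 on the X chromosome was called in all 3 NR libraries (6.71, 21 and 8.98), in both GR-con (16.7 and 12.1) and in GR-KO replicate 1 (7.31), with no NFIA peak in any library. The Dok6 intron had a peak in GR-KO replicate 1 (12.8) and in no GR-con library. All but 1 of the 45 sites with a GR-KO peak had it in replicate 1, the larger of the 2 GR-KO lists.

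Only 4 of the 29 sites called in all 3 NR libraries had no NFIA peak in any library. They included the Tmem47 site, an intron of Cdh2, the N-cadherin gene (3.65, 15.8 and 6.71 in NR, 17.8 and 6.14 in GR-con), and an intron of Vwa8 (3.96, 7.28 and 6.08 in NR, 3.83 and 5.99 in GR-con). Other highly ranked sites without any NFIA peak lay 27140 bp upstream of Nuak1, an AMPK-related kinase gene (20.1 and 9.37 in NR replicates 2 and 3, no peak in any other library), and at a start within Ksr1, a Ras pathway scaffold (9.89 and 9.95, with 4.61 in GR-con replicate 2). The site at a start within Ttyh1, a gene of a chloride channel family strongly expressed in astrocytes (chr7:4121119-4121309), had 9.65 and 9.21 in NR replicates 1 and 3 and lay 121 bp from an NFIA site.

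The 3 sites with a full GRE were of middling strength. The Sspn site had 6.24, 6.84 and 6.08 in the 3 NR libraries, an NFIA peak in replicate 2 (8.08) and no peak in GR-con. The Dclk2 site had 7.53 and 4.97 in NR replicates 2 and 3 and 6.11 and 7.15 in GR-con, with no NFIA peak. The Tnp1 site had 5.11 and 6.63 in NR replicates 1 and 3 and an NFIA peak in replicate 1 (6.28). None of the 3 had a DR or GR-KO peak.

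Within 50 kb of their start, 757 of 21911 protein-coding genes (3.45%) had a GR site without NFIA, and 49.8% had one with NFIA. Among canonical glucocorticoid targets 6 of 30 genes had a site without NFIA, and 23 had one with NFIA. These were Glul, the glutamine synthetase, with 2 sites, and Klf15, the metallothioneins Mt1 and Mt2, Cebpd and Pck1. The site 1353 bp into Glul (6.81 and 6.63 in NR replicates 1 and 3) lay 1133 bp from an NFIA site, and that 6135 bp upstream of Klf15 (4.75 and 7.74) lay 5390 bp from one. The Mt1 site, 7761 bp downstream of its start, had an NFIA peak in replicate 3 (5.78). None of these 3 had a GR peak outside the NR libraries.

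In a list of 40 genes that mark or mature astrocytes, 14 had a GR site without NFIA and 38 had one with NFIA. They included Aldh1l1 and Slc1a3, markers of astrocytes, the growth factor receptor Fgfr3, the transcription factors Nfix, Lhx2 and Id3, and Gjb6, which encodes connexin 30. All 14 also had at least 3 GR sites with NFIA in the same interval. The Gjb6 site, 28.5 kb upstream at chr14:57162049-57162149, had TGGAAA, folds of 9.58 and 7.19 in NR replicates 2 and 3 and 12 in DR replicate 3, and no peak in GR-con or GR-KO. The Hepacam site, 911 bp into the gene of an astrocyte adhesion protein, had 7.13 and 6.87 in NR replicates 1 and 3 and lay 482 bp from an NFIA site. Of the genes that the study text names, 3 of 11 had a site without NFIA, namely Mt1, Mt2 and Gjb6.

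The remaining lists had few such sites. Hsd11b1, whose enzyme regenerates active glucocorticoid, was the only one of 23 genes for GR chaperones and cofactors, with a site at chr1:193242369-193242470 of 8.20 and 12 in NR replicates 1 and 3 and an NFIA peak in replicate 2 (11.7). Cry2 was the only one of 20 clock genes (6.64 and 9.95 at an exon, with an NFIA peak of 6.87). Junb and Fosb were the 2 of 19 immediate early genes, Myrf the 1 of 14 oligodendrocyte lineage markers, Rps14 the 1 of 24 ribosomal protein genes, and H3f3a the 1 of 10 histone genes. In a list of 20 housekeeping genes, Hprt had one at its promoter. No gene of heat shock and protein folding (16), and no marker of excitatory neurons (13), inhibitory neurons (15), microglia (13) or endothelial and mural cells (14), and no fibroblast or matrix gene (14), had one.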

How the data were processed

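GR and NFIA peaks were taken from 39 deposited lists in 15 groups. Of the 50 samples, 11 (IgG controls and GFP-negative nuclei) were not used here. The authors had run cutadapt for adapters, Bowtie2 for alignment (mm10), Picard and SAMtools for duplicates and filtering, deepTools for short fragments, and MACS2 for peaks in each library with IgG as control, as their methods and processing notes state. The sources used here do not say which IgG library served a call. In the deposited lists the authors give a fold enrichment (a ratio), a −log10 p and −log10 q, a score and a summit. The highest deposited q was 0.00999 in vivo and 0.0498 in 3T3 cells. Totals of reads are unknown, so depth is seen only as 1 to 27143 peaks per list, and a site without a peak is one not called.

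Members, motif and gene lists were chosen with earlier results of these data known. The TGGAAA pattern was added after seeing the data. Sites were merged and counted with Python 3.11.15, numpy 2.4.6 and pandas 2.3.3, annotated with GENCODE M21, and read from GRCm38.p6, the assembly of mm10, with samtools 1.23.1. Coordinates are 1-based. A promoter lay within 500 bp of any annotated start, and flank windows lay 1 kb to each side of each GR site. Libraries were compared by exact two-sided permutation or sign-flip tests with Benjamini-Hochberg adjustment at a threshold of 0.05. P-values measure only the spread between libraries, and Wilson intervals at 95% and the limit from 0 of 586 (3 counts) cover counting error only. Tests over the 5 NR and GR-con libraries for position, composition and motifs were planned but are not reported, since 3 of these libraries chose the sites. Tests at promoter and distal sites apart were added after seeing the data. Procedures were tested on simulated peak lists.

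Named sites were ranked by the mean percentile of fold over the NR libraries that called them. Named were the 12 best with no NFIA peak in any library (all 3 NR libraries first), those with a full GRE, the 10 best with both GR-con and no GR-KO peak, the 6 best with a DR, a GR-KO, another cell type's (2 libraries) or a 3T3 DEX (2 libraries) peak, and the 3 best within 50 kb of a gene of each list. Vat1, Sde2, Dapk1 and the other most recurrent sites were described after their values were seen. The named gene of a site is the nearest protein-coding start, or its host gene where stated. Some named sites and genes are not reported here. Alternatives changed the calls needed, the overlap, the q threshold, the promoter and window widths, and left out each library.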

Additional observations from a re-analysis of the deposited data

Results flagged for a closer look

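The effect of DEX on the share of GR sites without NFIA that had a peak in 3T3 cells went in opposite directions at the 2 numbers of nuclei. It was -0.256 percentage points with 50000 nuclei and 0.939 with 250000, a difference of 1.19 points between them (exact permutation within each number of nuclei, p = 0.111, smallest possible p = 0.0556). The counts behind it were 4 to 12 of 586 sites, and all 4 vehicle libraries had 6 or 7.

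The difference in share between GR sites without and with NFIA was higher in DR than in GR-con by 23.8 percentage points, being above 0 in 3 of 3 DR libraries and below 0 in 2 of 2 GR-con libraries (exact permutation test, p = 0.1, the smallest possible). The DR lists hold 28 to 293 peaks and the GR-con lists 6792 and 7761, and the part of list size in this difference was not tested.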

How the results depend on the processing

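The number of GR sites without NFIA was 29 when GR had to be called in all 3 NR libraries, 165 with no NFIA peak allowed in any library and 1496 with NFIA sites called in all 3, and leaving out 1 library gave 40 to 1278. The corresponding shares of GR sites were 1.59%, 1.32% and 12.01%, with 2.18% to 10.3% when 1 library was left out and 3.83% with no NFIA site within 1000 bp. In the sites of all 3 NR libraries the GRE half-site (-7.85 percentage points), TAATTA (-3.29) and AP-1 (-0.97) reversed against sites with NFIA. With no NFIA peak in any library the NFI half-site (1.77) and AP-1 (-0.040) reversed, and with no NFIA site within 1000 bp the NFI half-site did (0.56). Choosing the sites without 1 library gave -4.26 to 4.00 for the GRE half-site and -2.60 to 3.84 for TAATTA (both reversed without NR replicate 3), -0.97 to 1.37 for AP-1 (reversed without NR replicate 1 or 3) and -3.04 to 0.22 for the NFI half-site. The DEX difference was -0.53 to 1.88 points when 1 library was left out (reversed without NR replicate 1) and -0.256 with 50000 nuclei alone. The cause of these changes was not tested. Of 315 values under an alternative setting, 285 kept their direction and side of the threshold. Many came from 5-library sign-flip tests, whose smallest p was 0.0625, or from tests of 2 libraries against 2. No p below 0.05 was possible there, so only the direction could change. The promoter difference stayed between -29.3 and -22.9 points, and the GR-con minus GR-KO difference between 9.98 points (without GR-con replicate 1) and 41.4.

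The replicate numbers were not known to pair libraries. A replicate block gave the same 19.0 points for GR-con minus GR-KO (p = 0.5, exact), 22.9, 21.4 and 22.3 for GR-con minus oligodendrocytes, InN and ExN, and 0.341 for DEX minus vehicle. The correlation of replicate differences between GR-con and GR-KO was 0.148 over these sites. With 2 libraries in each GR-con, GR-KO and 3T3 group, the smallest p was at or above 0.0556 in each of these comparisons, so those tests could not pass the threshold at any size of effect.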
